A study of Homo sapiens with 6 samples.

Results

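The genes described here are 10 transcripts that the RAS-ERK pathway is known to induce and that in part hold it back: DUSP4, DUSP5, DUSP6, SPRY2, SPRY4, SPRED1, ETV4, ETV5, PHLDA1 and FOSL1. They were taken by symbol from a list that was chosen with earlier results of these data known. All 10 were found among the 28265 gene rows of the count tables, and all 10 passed the filter on low counts. Messenger RNA was measured by polyA RNA sequencing in 3 libraries of MDA-MB-231GlnIND cells (called GlnIND) and 3 libraries of parental MDA-MB-231 cells. MDA-MB-231 is an established human triple-negative breast cancer line, known to carry activating mutations in the RAS-ERK pathway. The GlnIND derivative was kept for more than 6 weeks in RPMI medium without glutamine, with 10% dialysed fetal bovine serum. Parental cells grew in RPMI medium that held glutamine, with 10% undialysed fetal bovine serum, so effects of glutamine, of serum type and of the derived cell population cannot be told apart. Whether GlnIND is 1 clone, and whether the libraries came from separate cultures, is not given in the sources used here. The p-values thus speak of the spread among these 6 libraries, and that spread may be technical.

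In the RAS-ERK pathway a growth factor receptor loads RAS with GTP, RAS activates the RAF kinases, RAF activates MEK, and MEK activates the ERK kinases. ERK then switches on genes for transcription factors and for its own brakes: DUSP phosphatases strip the activating phosphates from ERK, and Sprouty and Spred proteins act further up, between the receptor and RAF. Because these transcripts follow ERK activity within hours, several of them are read together as an output signature in tumours with RAS or RAF mutations. Here only their mRNA was measured, not the phosphorylation of ERK.

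GlnIND libraries held 21276815 to 24594248 counts in all, and parental libraries 18256219 to 21741371. At this depth each of the 10 genes had at least 1056 counts in every library. Parental library 1 stood apart. Its counts differed from those of parental 2 and 3 by a chi-square of 22.8 and 31.9 per degree of freedom, against 3.98 between parental 2 and 3 and 3.42 to 4.13 between GlnIND libraries. No pair of libraries agreed within sampling noise. VIM and CD44, which mark mesenchymal-like breast cancer cells such as this line, averaged 6077 and 785 CPM (read counts scaled to library size and composition) in GlnIND cells and 3979 and 969 CPM in parental cells. They belong to a list of 5 markers chosen for such cells, which also held the epithelial keratins KRT8 and KRT18. All 5 were called, 1 higher and 4 lower in GlnIND cells, with a median log2 change of -0.50. Both keratins were among those called lower. Of all tested genes 56.3% were called. Of 4 hormone receptor markers of breast, ESR1 had 14 and 6 counts and PGR 8 and 2 in all GlnIND and all parental libraries, GATA3 was not called at 10.6 and 10.4 CPM, and FOXA1 was called lower at 3.22 and 5.82 CPM. Of 4 blood cell markers, CD3E and HBB had 0 counts in each group, PTPRC had 9 and 5, and CD14 had 38 and 18 and was not called. Of 4 fibroblast markers, COL1A1 was called higher at 12.3 and 5.00 CPM (log2 of GlnIND over parental 1.29, edgeR adjusted p = 0.00014), while COL1A2 had 12 and 10 counts, DCN 0 and 3 and PDGFRA 20 and 2. The epithelial keratins KRT8 and KRT18 averaged 123 and 104 CPM in GlnIND cells and 266 and 284 CPM in parental cells, and the part of these markers in the results below was not tested.

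The comparison of GlnIND with parental cells asks which transcripts differ after long growth without glutamine. Of the 10 genes, 5 were lower in GlnIND cells, 1 was higher and 4 were not called, where called means an adjusted p under 0.05 in edgeR's quasi-likelihood test with Benjamini-Hochberg adjustment over all 13949 tested genes. PHLDA1 fell by the largest factor of the 10, to a level 2.03-fold lower, followed by SPRY4, DUSP5, SPRY2 and DUSP6. ETV5 was the gene that rose. DUSP4, SPRED1, ETV4 and FOSL1 did not pass the test. Over all tested genes 56.3% were called, 28.4% higher and 27.9% lower, so the 60.0% of these 10 genes that were called is close to the background and is no result about them as a set. Their median log2 change was -0.20, against 0.03 over all tested genes. At 6 of the 10, the same 6 that were called, no GlnIND library fell within the parental range of CPM. Over all tested genes this held for 65.0%, of which GlnIND was the higher group at 33.7% and the lower at 31.3% of all. Because RNA came from whole cultures, a lower level in every cell and fewer cells with the transcript cannot be told apart.

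**Figure D1:**
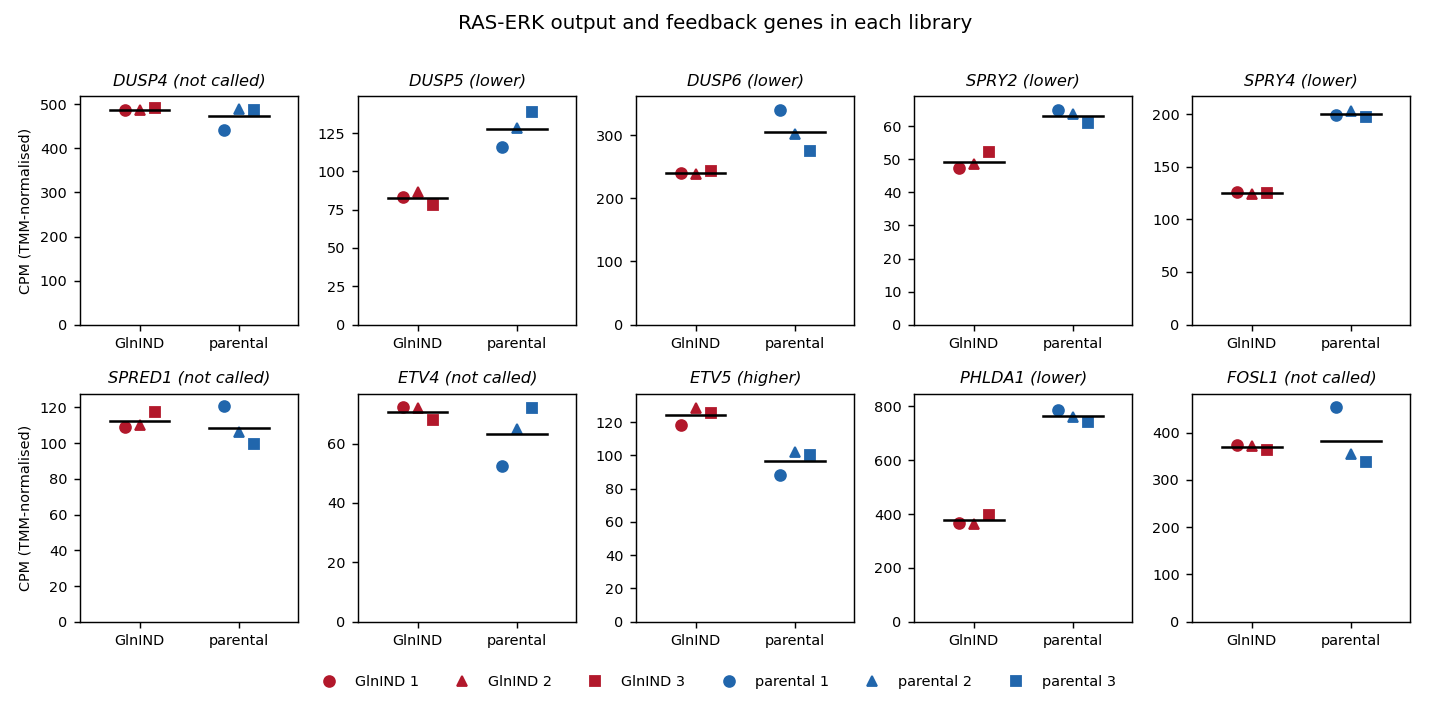
Level of each of the 10 genes in CPM (TMM-normalised, axes from 0) in the 3 GlnIND libraries (left, red) and the 3 parental libraries (right, blue), with the symbol giving the library and the black line the mean. PHLDA1 lies between 362 and 398 CPM in GlnIND cells and between 743 and 786 CPM in parental cells, while FOSL1 and DUSP4 overlap and parental 1 is the library farthest from the other parental ones for both.

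RefSeq promoters (GRCh38.p14, 250 bases before the start site to 50 after it) were available here for 5 of the 10 genes. Availability alone set which are shown. Of these genes 4 were called lower in GlnIND cells (SPRY4, PHLDA1, DUSP6 and SPRY2), and SPRED1 was not called. Over all tested genes 27.9% were called lower. DUSP5, also called lower, was not among the 5. The genes that ERK acts on are commonly reached through ETS and AP-1 factors, and capitals mark matches on either strand to the ETS core CCGGAA or to the PEA3-type site AGGAAG. Both contain GGAA but cannot match at the same bases.
SPRY4, chr5:142324198-142324497, minus strand: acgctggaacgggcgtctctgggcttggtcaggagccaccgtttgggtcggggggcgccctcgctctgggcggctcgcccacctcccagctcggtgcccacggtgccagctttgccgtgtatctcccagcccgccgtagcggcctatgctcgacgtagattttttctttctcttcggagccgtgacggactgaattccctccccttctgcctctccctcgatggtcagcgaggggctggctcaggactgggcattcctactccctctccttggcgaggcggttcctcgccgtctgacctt
PHLDA1, chr12:76031727-76032026, minus strand: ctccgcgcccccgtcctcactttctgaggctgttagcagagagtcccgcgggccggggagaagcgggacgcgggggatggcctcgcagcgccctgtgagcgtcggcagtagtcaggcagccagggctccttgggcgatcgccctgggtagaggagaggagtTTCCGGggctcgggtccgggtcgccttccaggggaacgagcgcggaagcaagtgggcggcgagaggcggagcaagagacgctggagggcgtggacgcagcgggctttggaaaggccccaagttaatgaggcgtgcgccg
DUSP6, chr12:89352452-89352751, minus strand: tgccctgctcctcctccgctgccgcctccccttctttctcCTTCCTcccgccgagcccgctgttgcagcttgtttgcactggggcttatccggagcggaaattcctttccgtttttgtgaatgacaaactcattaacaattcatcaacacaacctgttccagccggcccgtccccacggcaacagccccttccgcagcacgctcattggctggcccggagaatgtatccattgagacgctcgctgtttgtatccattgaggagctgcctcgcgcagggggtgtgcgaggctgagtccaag
SPRY2, chr13:80341077-80341376, minus strand, the most upstream of 3 listed starts: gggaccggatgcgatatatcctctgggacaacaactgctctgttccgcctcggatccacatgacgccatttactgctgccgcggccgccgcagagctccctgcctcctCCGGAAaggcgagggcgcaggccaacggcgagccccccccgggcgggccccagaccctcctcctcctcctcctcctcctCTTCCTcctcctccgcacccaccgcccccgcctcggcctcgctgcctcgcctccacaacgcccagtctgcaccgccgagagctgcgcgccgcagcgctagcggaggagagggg
SPRED1, chr15:38252586-38252885, plus strand: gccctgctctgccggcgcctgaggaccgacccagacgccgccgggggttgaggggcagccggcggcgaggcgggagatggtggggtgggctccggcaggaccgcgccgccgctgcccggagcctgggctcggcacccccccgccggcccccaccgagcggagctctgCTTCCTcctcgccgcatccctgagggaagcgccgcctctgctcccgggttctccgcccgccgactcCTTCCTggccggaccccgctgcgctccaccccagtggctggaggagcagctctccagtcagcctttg

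In these windows PHLDA1 held 1 ETS core, SPRY2 held 1 ETS core and 1 PEA3-type site, DUSP6 held 1 PEA3-type site and SPRED1 held 2. SPRY4 held neither. Of 35116 RefSeq promoter windows of the same length, 17.2% held the ETS core and 33.6% the PEA3-type site. The AP-1 site TGANTCA (7.71% of windows), the cyclic AMP element TGACGTCA (1.85%) and the CArG box of serum response factor (1.29%) had no match in any of the 5 sequences. GC content was 65.0% for SPRY4, 69.3% for PHLDA1, 58.3% for DUSP6, 71.0% for SPRY2 and 76.3% for SPRED1. Letters of this kind describe a window and do not show that a factor binds there.

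The DUSP genes encode phosphatases that switch ERK off. DUSP5, which acts on ERK in the nucleus, had 83.0, 86.4 and 78.0 CPM in GlnIND libraries 1 to 3, against 116, 128 and 139 CPM in parental libraries 1 to 3. Every GlnIND library lay below every parental one. The means were 82.4 ± 4.22 and 128 ± 11.6 CPM (SD, n = 3 each), and the log2 change (log2 of GlnIND over parental) was -0.63 (standard error 0.082, edgeR adjusted p = 0.000148). DUSP6, the cytoplasmic ERK phosphatase and a widely used readout of ERK activity, had 239.9, 238 and 243 CPM in GlnIND libraries, against 339, 302 and 275 CPM in parental ones. The groups did not overlap, and parental 3 lay nearest to the GlnIND libraries and parental 1 farthest from them. Means were 241 ± 2.50 and 305 ± 32.5 CPM (SD, n = 3 each), with a log2 change of -0.34 (standard error 0.079, edgeR adjusted p = 0.00447) and of -0.27 without parental 1. DUSP4, a nuclear phosphatase of ERK, JNK and p38 kinases, had 486, 488 and 491 CPM in GlnIND libraries, against 441, 489 and 488 CPM in parental ones. Parental 2 and 3 fell within the GlnIND range, and parental 1 alone was lower. Its log2 change was 0.05 (95% interval -0.09 to 0.19, edgeR adjusted p = 0.547).

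Sprouty and Spred proteins brake the pathway above RAF. SPRY4, a Sprouty inhibitor of receptor signalling to RAS, had 126, 124 and 125 CPM in GlnIND libraries, against 199, 203 and 197 CPM in parental ones. Means were 125 ± 1.03 and 199.7 ± 2.63 CPM (SD, n = 3 each), a log2 change of -0.68 (standard error 0.057, edgeR adjusted p = 9.67e-06). SPRY2, its relative, had 47.4, 48.5 and 52.3 CPM in GlnIND libraries, against 64.9, 63.7 and 61.1 CPM in parental ones. All GlnIND values again lay below all parental values. The means of 49.4 ± 2.58 and 63.3 ± 1.94 CPM (SD, n = 3 each) gave a log2 change of -0.36 (standard error 0.075, edgeR adjusted p = 0.00256). SPRED1, which brings the RAS GTPase activator neurofibromin to the membrane, had 109, 109.9 and 118 CPM in GlnIND libraries, against 121, 106 and 99.3 CPM in parental ones. The groups overlapped, with parental 1 the highest library of all. SPRED1 had a log2 change of 0.05 (95% interval -0.14 to 0.23, edgeR adjusted p = 0.655), and of 0.12 without parental 1 (edgeR adjusted p = 0.0538).

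The remaining 4 genes encode nuclear factors and a growth-related protein. PHLDA1, a protein with a pleckstrin homology-like domain that is induced by ERK and linked to cell survival, had 368, 362 and 398 CPM in GlnIND libraries, against 786, 762 and 743 CPM in parental ones. Every GlnIND library lay below every parental one. Means were 376 ± 18.8 and 764 ± 21.5 CPM (SD, n = 3 each), a log2 change of -1.02 (standard error 0.063, edgeR adjusted p = 1.58e-06). Its change was larger than that of 84.7% of all tested genes, while those of SPRY4 and DUSP5 were larger than 71.2% and 68.2%. ETV5, an ETS transcription factor of the PEA3 family, had 118, 129 and 125 CPM in GlnIND libraries, against 87.9, 102 and 100.3 CPM in parental ones. No GlnIND library reached down to the parental range. The means of 124 ± 5.28 and 96.8 ± 7.81 CPM (SD, n = 3 each) gave a log2 change of 0.36 (standard error 0.077, edgeR adjusted p = 0.00297).

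ETV4, the second PEA3 factor here, had 72.2, 72.0 and 67.9 CPM in GlnIND libraries, against 52.4, 65.0 and 71.9 CPM in parental ones. Parental 3 lay within the GlnIND range and parental 1 well below it. ETV4 had a log2 change of 0.16 (95% interval -0.08 to 0.41, edgeR adjusted p = 0.220), and of 0.04 without parental 1. The gene DHX8 overlaps ETV4 on the opposite strand and had 10443 and 7431 counts in the GlnIND and parental groups, so without the authors' strand setting the ETV4 counts are uncertain. PHLDA1, DUSP6 and ETV5 also overlap antisense genes on the opposite strand that have no row of their own in the counts. Whether reads from those genes entered the counts of PHLDA1, DUSP6 and ETV5 was not tested. ETV5 overlaps DGKG on its own strand, but DGKG had only 323 and 50 counts beside 8987 and 5490 for ETV5. FOSL1, the AP-1 subunit FRA-1, had 374, 372 and 363 CPM in GlnIND libraries, against 454, 355 and 338 CPM in parental ones. Parental 1 was above and parental 2 and 3 were below every GlnIND library. FOSL1 had a log2 change of -0.05 (95% interval -0.28 to 0.18, edgeR adjusted p = 0.709), and of 0.08 without parental 1 (edgeR adjusted p = 0.101).

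Leaving out any 1 library kept all 6 calls and their directions, and gave none of the other 4 genes a call, while 47.0%, 46.0% and 46.1% of all genes were called without GlnIND 1, 2 and 3 and 65.2%, 49.9% and 54.5% without parental 1, 2 and 3. The same 6 genes were called with RLE or upper-quartile factors (56.3% and 57.0% of all genes), without a filter or with one on CPM (40.6% and 58.6%), with a replicate block (52.4%), with DESeq2 or limma-voom (45.8% and 56.9%), and at an adjusted p under 0.01 (41.9%). None was called by glmTreat against a log2 change of 1 (7.21%). Without parental 1 the log2 changes of the called genes were -0.71 for DUSP5, -0.27 for DUSP6, -0.35 for SPRY2, -0.69 for SPRY4, 0.28 for ETV5 and -1.01 for PHLDA1. Scaling moved all values together. TMM factors put the median over all tested genes at 0.03, upper-quartile factors at 0.12 and plain library totals at 0.18, and 50.5%, 59.7% and 65.6% of the calls were then higher. With library totals DUSP4, SPRED1 and ETV4 were also called higher, at 0.20, 0.20 and 0.32 (edgeR adjusted p = 0.0268, 0.0439 and 0.0406), and FOSL1 stood at 0.11 (0.338), where 58.5% of all genes were called, 38.4% higher and 20.1% lower. Measured from that median, those 4 changes were 0.01, 0.02, 0.13 and -0.08 with library totals, and 0.02, 0.01, 0.13 and -0.08 with TMM factors. The 5 genes called lower stayed lower and ETV5 stayed higher with each of these scalings.

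**Figure D2:**
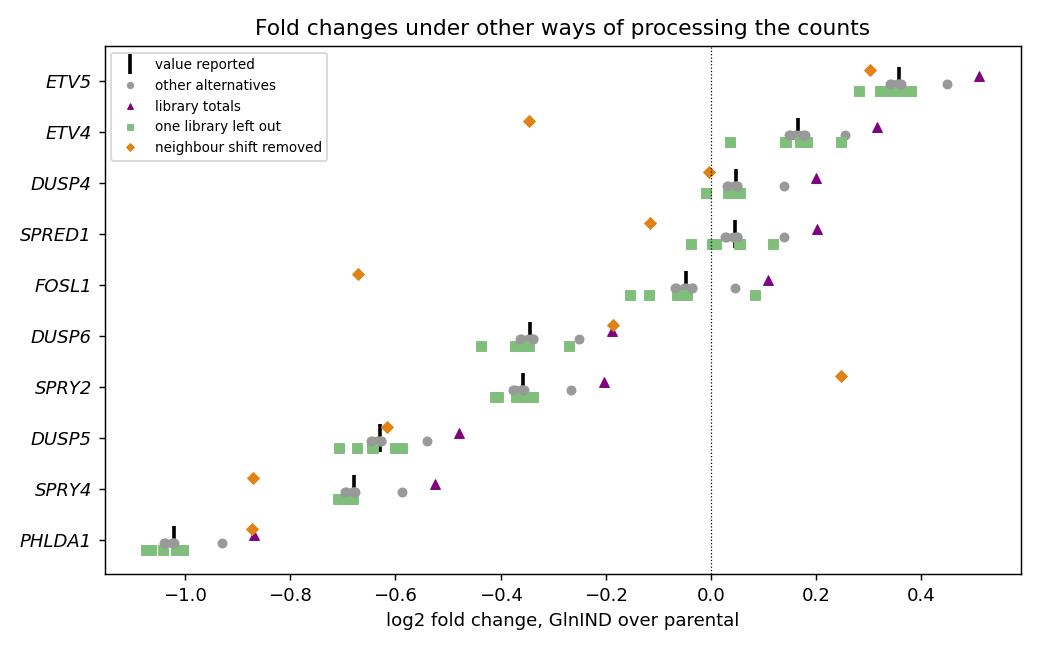
Log2 fold change (GlnIND over parental) of each gene as reported (black bar) and under other ways of processing. These were other scalings, filters and tests, 1 library left out, or the change of neighbouring genes taken away. PHLDA1, SPRY4, DUSP5 and DUSP6 stay below 0 and ETV5 above 0 throughout, whereas SPRY2 moves to 0.25 once its neighbours' change is removed.

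To show how the surroundings of each gene changed, it was set beside the 20 tested genes on either side of it. Around PHLDA1, DUSP5, ETV5, DUSP4 and DUSP6 the 40 neighbours had medians of -0.15, -0.01, 0.05, 0.05 and -0.16 on the log2 scale. SPRY4 went against a median of 0.19, and 38 of its 40 neighbours had a higher fold change than SPRY4 itself. For SPRY2 on chromosome 13 the neighbours' median was -0.60 and 25 of 40 were called lower. For FOSL1 on chromosome 11 the median was 0.62, with 29 of 40 called higher and 1 lower. ETV4 on chromosome 17 had a median of 0.51 with 23 called higher, and SPRED1 on chromosome 15 had 0.16 with 13 called higher.

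With the neighbours' median subtracted, and treated as known, 5 of the 10 genes were lower and 2 were higher, where 49.0% of all genes placed were called, 23.7% higher and 25.2% lower. PHLDA1, SPRY4, DUSP5 and ETV5 kept their calls at -0.87, -0.87, -0.62 and 0.30. DUSP6 lost its call at -0.19 (adjusted p = 0.0761). SPRY2 turned to 0.25 (adjusted p = 0.0207), so it was higher than its neighbours' median. It lay within their interquartile range of -0.80 to -0.15, and 15 of the 40 had a higher fold change. The adjusted p carries none of that spread. FOSL1 and ETV4 became lower, at -0.67 and -0.35 (adjusted p = 0.000517 and 0.0239). DUSP4 and SPRED1 changed sign without a call, at -0.003 and -0.12 (adjusted p = 0.969 and 0.269). What moved the neighbours was not tested.

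**Figure D3:**
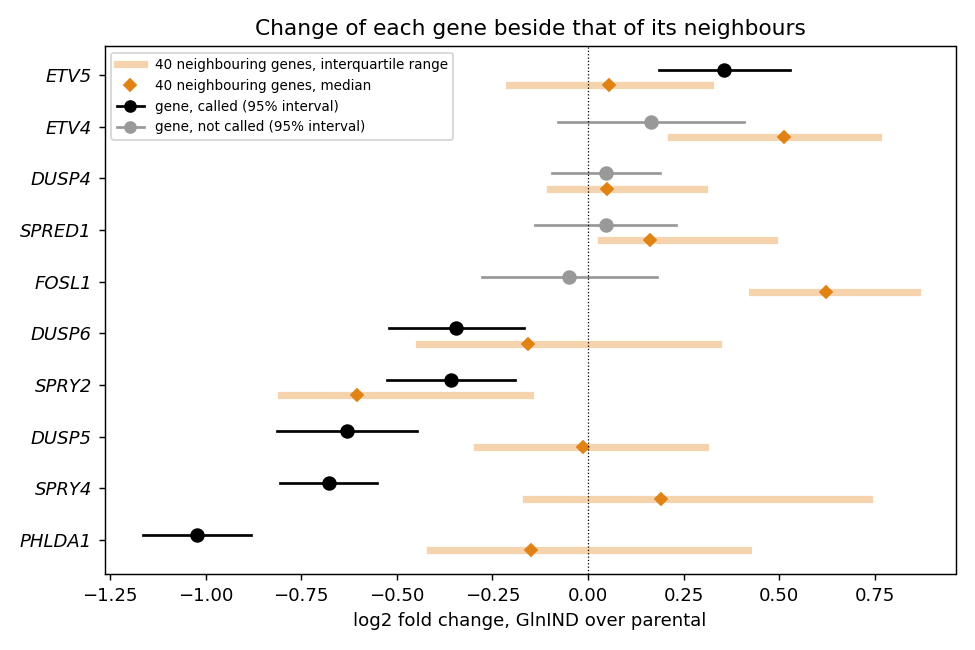
Log2 fold change (GlnIND over parental) of each gene with its 95% interval (circles, black where called and grey where not) above the median (orange diamond) and interquartile range (orange bar) of its 40 neighbouring tested genes. FOSL1 at -0.05 lies below the interquartile range of its neighbours, whose median is 0.62. SPRY2 at -0.36 lies above its neighbours' median of -0.60 but within their interquartile range.

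Ratios between relatives within a library do not depend on scaling. The 7 pairs that the 10 genes form within the DUSP, Sprouty-Spred and ETV families were compared, without other members of those families. The ratio of DUSP4 to DUSP5 counts was 5.86, 5.65 and 6.30 in GlnIND libraries, against 3.82, 3.81 and 3.52 in parental ones. DUSP4 to DUSP6 was 2.03, 2.05 and 2.02 in GlnIND libraries, against 1.30, 1.62 and 1.78 in parental ones. DUSP4 thus stood higher relative to DUSP5 and to DUSP6 in every GlnIND library than in any parental one. SPRED1 to SPRY4 was 0.868, 0.888 and 0.942 in GlnIND libraries, against 0.605, 0.524 and 0.503 in parental ones. SPRED1 to SPRY2 averaged 2.27 ± 0.0292 and 1.72 ± 0.124, and SPRY2 to SPRY4 averaged 0.396 ± 0.0214 and 0.317 ± 0.00837 in GlnIND and parental libraries (SD, n = 3 each). These 5 ratios did not overlap between the groups. Each gave p = 0.1 in a two-sided exact permutation test, the smallest that 3 against 3 libraries allow (Benjamini-Hochberg adjusted over the pairs, 0.14). Pairs with DUSP4 or SPRED1 set a gene without a call against a gene called lower, so they in part restate those calls. Over all single tested genes the CPM ranges did not overlap at 65.0%, and the share over other pairs was not computed. DUSP5 to DUSP6 overlapped, averaging 0.343 ± 0.0211 and 0.424 ± 0.0823 (SD, n = 3 each, exact permutation p = 0.3, adjusted 0.3), as did ETV5 to ETV4 at 1.75 ± 0.106 and 1.55 ± 0.142 (SD, n = 3 each, exact permutation p = 0.2, adjusted 0.233).

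**Figure D4:**
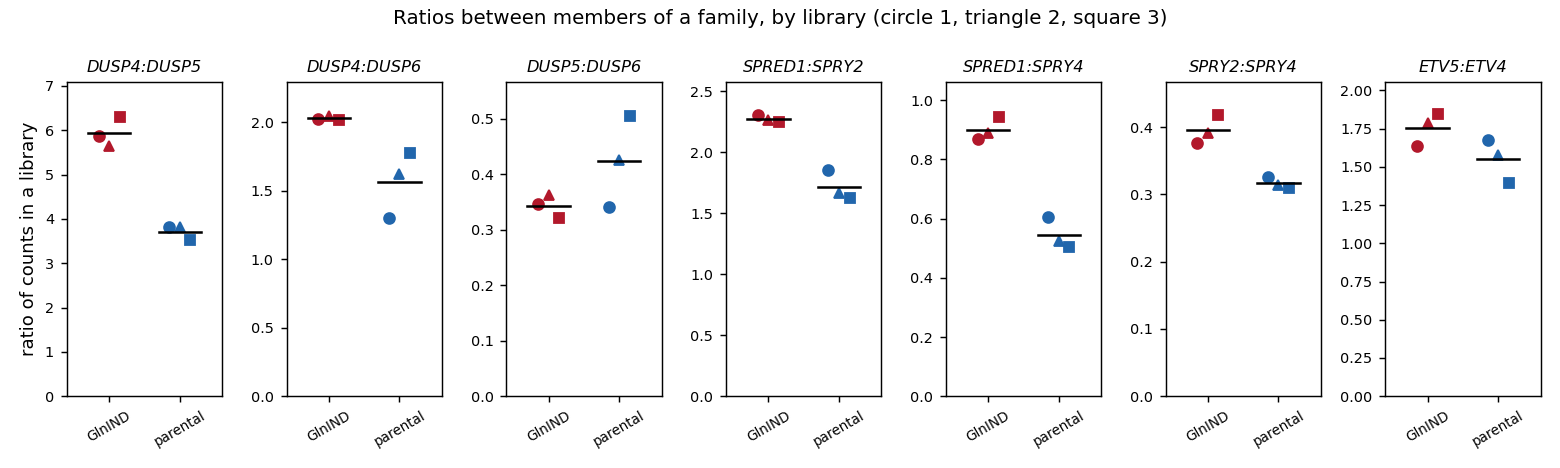
Ratio of counts between 2 genes of a family within each library (axes from 0), GlnIND left in red and parental right in blue, with black lines for the means. The ratio of DUSP4 to DUSP5 is 5.65 to 6.30 in GlnIND libraries and 3.52 to 3.82 in parental ones, while ETV5 to ETV4 overlaps.

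Levels of different genes were compared per kilobase of exon, with exon lengths from GENCODE release 29, which may not be the annotation the authors counted on. FOSL1 was the highest of the 10 in both groups, at 201 ± 3.09 CPM per kb in GlnIND cells and 208 ± 34.0 CPM per kb in parental cells (SD, n = 3 each). In GlnIND cells DUSP4 (67.3), DUSP6 (52.9), PHLDA1 (46.6) and DUSP5 (32.2 CPM per kb) followed. In parental cells PHLDA1 (94.6 CPM per kb) was next, then DUSP6 (67.1) and DUSP4 (65.1), whose libraries overlapped. SPRED1 was the lowest in both, at 14.4 and 14.0 CPM per kb in GlnIND and parental cells. ETV4 and SPRY4 overlapped in GlnIND cells, and ETV4 overlapped ETV5, and ETV5 overlapped SPRY2, in parental cells.

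Upstream of these genes, the receptors and the cascade moved in both directions. Of 10 tested growth factor receptor genes 6 were higher in GlnIND cells, 2 were lower and 2 were not called, the median log2 change being 0.51, where 28.4% of all tested genes were called higher and 27.9% lower. PDGFRB, a receptor for platelet-derived growth factor, averaged 3.08 ± 0.225 CPM in GlnIND cells and 1.07 ± 0.203 CPM in parental cells (SD, n = 3 each), a log2 change of 1.52. FGFR4, a fibroblast growth factor receptor, averaged 3.06 ± 0.404 and 7.72 ± 1.93 CPM (SD, n = 3 each), a log2 change of -1.33 (edgeR adjusted p = 0.000545). Among 15 genes from adaptors to ERK, 4 were higher, 6 were lower and 5 were not called, the median being -0.05. Without GlnIND 2 the genes called lower numbered 3, where 3337 of 14168 tested genes were called lower. With library totals they numbered 2, where 20.1% of all genes were called lower.

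PTPN11, the phosphatase SHP2 that passes receptor signals on to RAS, had 669, 674 and 671 CPM in GlnIND libraries, against 1030.1, 946 and 906 CPM in parental ones. All GlnIND libraries were lower, and PTPN11 had a log2 change of -0.52 (standard error 0.065, edgeR adjusted p = 0.000121), which was -0.23 with its neighbours' median of -0.29 removed. BRAF, a RAF kinase known to be mutated in this line, fell by 0.45 in log2 units (edgeR adjusted p = 0.00230), as much as its neighbours with a median of -0.46, and stood at 0.004 relative to them. ARAF, a further RAF kinase, rose by 0.91 in log2 units (edgeR adjusted p = 5.96e-05), and by 0.43 with its neighbours' median of 0.48 removed. The MEK genes MAP2K1 and MAP2K2 fell by 0.21 and 0.39 in log2 units (edgeR adjusted p = 0.0334 and 0.0153). The MAP2K1 call was lost when any library but parental 1 was left out (adjusted p = 0.0510 to 0.115) and the MAP2K2 call without GlnIND 2 or GlnIND 3 (0.0589 and 0.0541), and both were lost with upper-quartile factors (0.206 and 0.0531) and library totals (0.557 and 0.118). Relative to their neighbours MAP2K1 stood at -0.39 and MAP2K2, without a call, at -0.18 (adjusted p = 0.00172 and 0.226). MAPK3, which encodes ERK1, rose by 0.39 in log2 units (edgeR adjusted p = 0.00512).

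Among 9 genes that restrain RAS, 2 were higher, 3 were lower and 4 were not called, the median being -0.04. Of all tested genes 28.4% were called higher and 27.9% lower. CBL, the ubiquitin ligase that marks active receptors for degradation, fell by 1.22 in log2 units (edgeR adjusted p = 6.25e-07), and by 0.32 relative to its neighbours. LZTR1, which targets RAS proteins for degradation, rose by 0.96 (edgeR adjusted p = 1.73e-05). Of 7 kinases that ERK activates 2 were higher, 1 was lower and 4 were not called, the median being -0.06. RPS6KA2, a ribosomal S6 kinase, rose to 26.8 ± 1.42 CPM in GlnIND cells, against 7.54 ± 0.929 CPM in parental cells (SD, n = 3 each), and MKNK2, which phosphorylates the translation factor eIF4E, fell to 31.0 ± 2.09 CPM, against 74.3 ± 7.48 CPM (SD, n = 3 each). The kinases called higher numbered 1 without GlnIND 1, 2 or 3 or without parental 2 or 3. In those fits from 3151 of 14145 tested genes (without GlnIND 3) to 3826 of 14258 (without parental 3) were called higher. Kinases called lower numbered 3 without parental 1, where 4679 of 14232 tested genes were called lower. With the neighbours' median removed they numbered 4, where 25.2% of all genes were called lower.

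**Figure D5:**
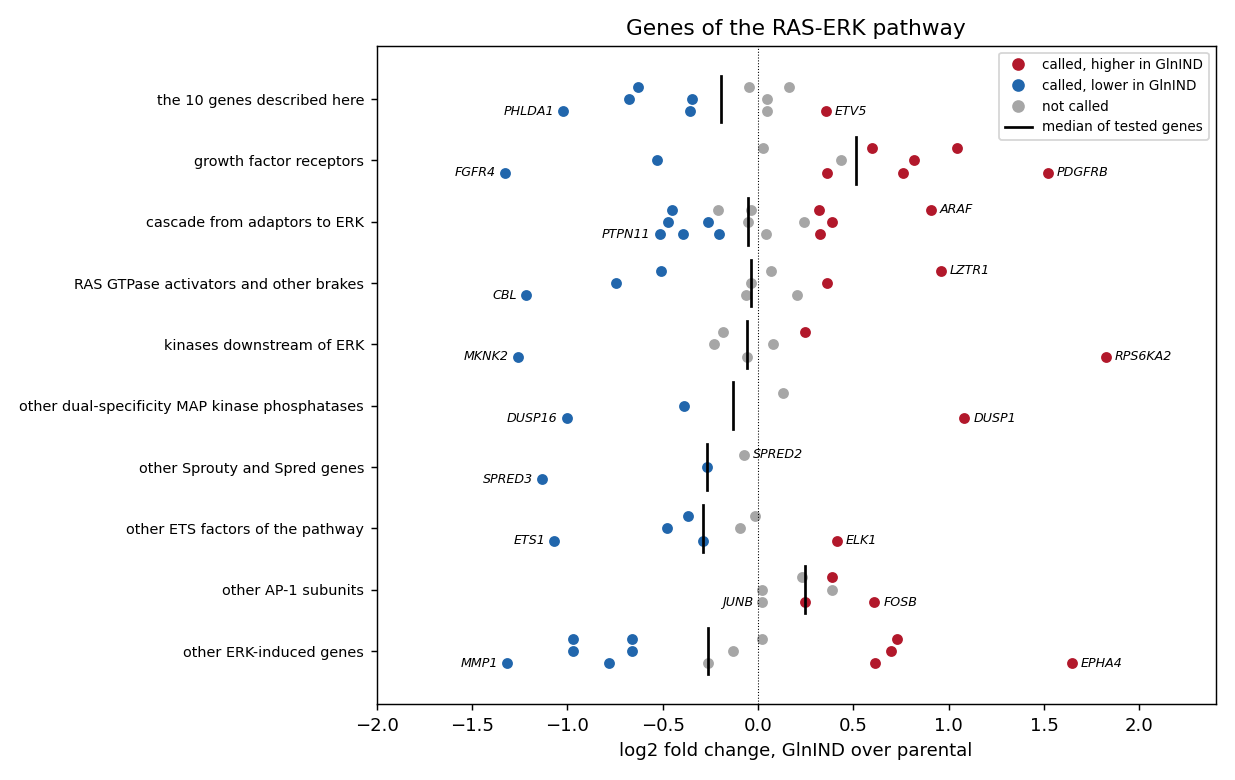
Log2 fold change (GlnIND over parental) of each tested gene in the 10 genes described here and in 9 lists of other pathway genes, coloured by call, with a black line at each list's median. Receptors reach from FGFR4 at -1.33 to PDGFRB at 1.52 and the other Sprouty and Spred genes lie at or below -0.07.

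The close relatives of the 10 genes were also mixed, beside 28.4% of all tested genes called higher and 27.9% called lower. Of 4 tested genes for other MAP kinase phosphatases 1 was higher, 2 were lower and 1 was not called, the median being -0.13. DUSP1, an early phosphatase mainly of p38 and JNK, rose to 24.99 ± 1.598 CPM in GlnIND cells, against 11.8 ± 0.886 CPM in parental cells (SD, n = 3 each, log2 change 1.08, edgeR adjusted p = 2.73e-05). DUSP16, a JNK phosphatase, fell to 13.1 ± 1.39 CPM, against 26.4 ± 3.32 CPM (SD, n = 3 each, log2 change -1.004, edgeR adjusted p = 0.000132). DUSP2, DUSP8 and DUSP9 did not pass the filter on low counts. With GlnIND 2 or parental 1 left out, the filter let in these low-count genes, and 4 and 5 genes of the list were called lower. Over all tested genes 3337 of 14168 and 4679 of 14232 were then called lower. Of 3 tested Sprouty and Spred relatives 2 were lower and 1 was not called, the median being -0.27. SPRED3 fell to 7.17 ± 0.624 CPM in GlnIND cells, against 15.8 ± 0.766 CPM in parental cells (SD, n = 3 each, log2 change -1.13). SPRY1 fell by 0.27 in log2 units (edgeR adjusted p = 0.0132), a call lost without GlnIND 2 (0.0597) and with library totals (0.239), and it stood at 0.14 relative to its neighbours (0.147).

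Among 7 further ETS factors 1 was higher, 4 were lower and 2 were not called, the median being -0.29. Of all tested genes 28.4% were called higher and 27.9% lower. ETS1, which works with AP-1 at ERK-responsive genes, had 208, 201 and 206 CPM in GlnIND libraries, against 446, 414 and 429 CPM in parental ones. Its log2 change was -1.07 (standard error 0.06, edgeR adjusted p = 8.38e-07), beside a neighbours' median of -0.95, and the remainder of -0.12 was not called (adjusted p = 0.123). ETV1, the third PEA3 factor, fell by 0.48 (edgeR adjusted p = 0.00234) and stood at -0.15 relative to its neighbours (adjusted p = 0.245). Of 7 other AP-1 subunits 3 were higher, 0 were lower and 4 were not called, the median being 0.24. Without parental 1, 1 of them was called lower, where 4679 of 14232 tested genes were called lower. With library totals 5 were called higher (38.4% of all genes), and with the neighbours' median removed 0 were (23.7% of all genes). FOSL2, the nearest relative of FOSL1, rose by 0.39 (edgeR adjusted p = 0.00262), and FOSB by 0.61 in log2 units (edgeR adjusted p = 0.0223). The third, JUN, rose by 0.24 (edgeR adjusted p = 0.00533). None of the 3 was called relative to its neighbours (adjusted p = 0.176 for FOSL2, 0.288 for FOSB and 0.0725 for JUN), and FOSB lost its call without GlnIND 2 (0.0760), GlnIND 3 (0.0984) or parental 2 (0.0639), and with DESeq2 (0.0526).

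Other genes that ERK is known to induce went both ways as well: of 13 tested, 4 were higher, 6 were lower and 3 were not called, the median being -0.26. CCND1, the cyclin through which ERK promotes entry into the cell cycle, had 1285, 1289.8 and 1316 CPM in GlnIND libraries, against 741, 796 and 808 CPM in parental ones. Every GlnIND library was higher, and CCND1 had a log2 change of 0.73 (standard error 0.06, edgeR adjusted p = 9.0e-06), which fell to 0.17 once its neighbours' median of 0.56 was removed. EPHA4, an ephrin receptor, had 23.3, 25.4 and 27.4 CPM in GlnIND libraries, against 8.88, 8.58 and 6.86 CPM in parental ones, a log2 change of 1.65 with neighbours at -0.08. MMP1, the collagenase gene that AP-1 induces, fell to 20.1 ± 0.983 CPM in GlnIND cells, against 50.005 ± 1.01 CPM in parental cells (SD, n = 3 each, log2 change -1.32), and its neighbours had a median of -1.03. Over the 9 lists together 75 of 81 genes were tested, of which 23 were higher and 26 lower, or 65.3% against the background of 56.3%. Their median log2 change was -0.04.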

How the data were processed

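Cells were snap-frozen on their plates, and column-purified RNA went into Kapa mRNA HyperPrep polyA libraries, per the labels' protocols. For each gene symbol the authors deposited an unnormalised read count, in 1 table per library and in 1 matrix. FastQC, STAR, featureCounts, DESeq and the build hg19 are named in the submitters' processing notes. Versions, annotation, strand setting and treatment of multiply mapped reads are not given in the sources used here. Matrix columns and tables held the same values with the names of replicates 1 and 3 exchanged within each group, and replicate numbers follow the tables.

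The counts were tested with the quasi-likelihood test of edgeR 4.0.16 under R 4.3.3 (two-sided, group as the one term, TMM factors, default filterByExpr with a minimum count of 10 and a minimum total of 15), which left 13949 genes. The procedure was also run on simulated counts with 200 genes changed. In these data 7853 genes were called, so that run did not test the scaling for changes this widespread. A gene was called at a Benjamini-Hochberg adjusted p under 0.05. Standard errors (SE) come from the F statistic, and 95% intervals from its degrees of freedom. CPM are TMM-normalised. Gene order for neighbours, and promoter sequences, came from RefSeq on GRCh38.p14, and no coordinates of the count tables were used. Other named genes are the 2 called genes of each list that changed most among those averaging 1 CPM or more, plus BRAF, MAPK3, MAP2K1, MAP2K2 and CCND1. Other genes are named as cell type markers, as overlapping genes, to account for a count, or, for PHLDA2 and PHLDA3, as relatives of PHLDA1, chosen after their values were seen. A few pathway genes are not reported here. Members and lists were chosen with earlier results of these data known. Alternatives were RLE, upper-quartile and total scaling, 2 other filters, each library left out, a block for the replicate number, limma-voom (limma 3.58.1), DESeq2 1.42.0, glmTreat testing against a log2 change of 1, a call at an adjusted p under 0.01, the matrix as input, and the neighbours' median removed.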

Additional observations from a re-analysis of the deposited data

How the results depend on the processing

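Of the 10 genes 5 were lower and 1 was higher under each alternative but 3. The genes called higher numbered 4 with library totals and 2 with the neighbours' median removed. With glmTreat against a log2 fold change of 1, 0 were called higher and 0 lower. DUSP5 (-0.63), DUSP6 (-0.34), SPRY2 (-0.36), SPRY4 (-0.68) and ETV5 (0.36) changed by less than 1 and lost their calls there by construction. PHLDA1 (-1.02, standard error 0.063) lay just beyond that threshold and also lost its call. Of all genes glmTreat called 1006, 656 higher and 350 lower, against 7853, 3965 and 3888, and 2 higher and 3 lower of the 9 lists. With library totals DUSP4 (0.20), SPRED1 (0.20) and ETV4 (0.32) were called, and FOSL1 turned to 0.11, as it did to 0.045 with upper-quartile factors. With the neighbours' median removed DUSP6 stood at -0.19 without a call, SPRY2 turned to 0.25, ETV4 to -0.35, SPRED1 to -0.12 and DUSP4 to -0.0034, and FOSL1 was called at -0.67. With 1 library left out, DUSP4 ranged from -0.010 to 0.054, SPRED1 from -0.038 to 0.12 and FOSL1 from -0.15 to 0.084. Among other named genes BRAF and SPRY1 turned to 0.0042 and 0.14 with the neighbours' median removed. The cause of these changes was not tested.

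The replicate numbers did not pair the libraries. Deviations of same-numbered libraries from their group means correlated at -0.06, 0.03 and -0.04 for replicates 1 to 3. With the replicate block 7303 genes were called, and 5 of the 10 genes were lower and 1 higher. Among other named genes the block ended the call of MAP2K1 (adjusted p = 0.073). Intervals cover these libraries only.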

Other observations

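Relatives of PHLDA1 moved in opposite directions. PHLDA2, an imprinted gene known to restrain placental growth, had 41.8, 38.6 and 42.5 CPM in GlnIND libraries, against 90.0, 111 and 104 CPM in parental ones. Like PHLDA1 it was lower in all 3 GlnIND libraries, with a log2 change (GlnIND over parental) of -1.31 (standard error 0.091, edgeR adjusted p = 3.05e-06), while its neighbours had a median of -0.08. PHLDA3, a p53 target that restrains AKT, had 6.10, 6.87 and 5.76 CPM in GlnIND libraries, against 1.09, 2.57 and 2.39 CPM in parental ones. It was higher in all 3 GlnIND libraries, with a log2 change (GlnIND over parental) of 1.64 (standard error 0.267, edgeR adjusted p = 0.000595). The antisense row SPRY4-AS1 had 47 counts in all GlnIND and 46 in all parental libraries, beside 9031 and 11353 for SPRY4.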
